A study of Mus musculus with 32 samples.

Results

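Expression of 10 genes of the BCL2 family was examined in 32 primary mouse melanomas. The members were chosen by name, as the rows of the count and TPM tables whose Ensembl identifiers map to their symbols, and all 10 were found among the 50600 genes of the tables. They were 3 anti-apoptotic genes (Bcl2, Bcl2l1 and Mcl1), 2 effector genes (Bax and Bak1) and 5 BH3-only genes (Bcl2l11, Bmf, Bad, Pmaip1 and Bbc3). The tumours formed 4 groups of 8. Ecad males and Ecad females carried Tyr::NrasQ61K, an activated NRAS expressed from the tyrosinase promoter of the pigment lineage, a single working copy of the tumour suppressor gene Cdkn2a (Cdkn2a-/+), and floxed Cdh1 alleles (Cdh1F/F) with no Cre. In the study, ΔEcad males and ΔEcad females carried the same alleles with Tyr::CreA, a Cre recombinase under the tyrosinase promoter. The study describes a conditional deletion of Cdh1, the gene of E-cadherin, in melanocytes. Cells of these tumours without Cre activity would keep Cdh1. The labels name Tyr::NRAS/° in the place of Tyr::CreA/°. All groups share the NRAS transgene, the loss of 1 Cdkn2a copy, the floxed Cdh1 and the C57BL/6J background, there was no drug treatment, ages were not in the labels, and tumours were taken at about 1 cm3. Separate tumours served as replicates, and p-values measure the spread between them. Because whole tumour tissue was sequenced, fewer cells of a type and less RNA per cell cannot be told apart.

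BCL2 family proteins set the threshold of the mitochondrial route to cell death. BCL2, BCL-XL (the product of Bcl2l1) and MCL1 hold the pore-forming effectors BAX and BAK in check, and BH3-only proteins relieve that hold when a cell is stressed. Death after loss of attachment to matrix or neighbouring cells is called anoikis, in which BIM (from Bcl2l11) and BMF are the best known triggers, while PUMA (from Bbc3) and NOXA (from Pmaip1) are induced by p53 and BAD responds to loss of survival factor signals. In pigment cells, Bcl2 is a target of the lineage factor MITF. E-cadherin holds melanocytes to keratinocytes, and the comparison of ΔEcad with Ecad tumours asks how gene expression differs once it is lost.

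Between 24036333 and 63923086 counts were assigned to genes per tumour. Levels are given in TPM, which corrects for the length of a gene and for sequencing depth. In males, the deleted gene Cdh1 averaged 145.8 ± 87.5 TPM without and 13.05 ± 21.7 TPM with the deletion. In females the corresponding means were 50.5 ± 52.9 and 55.2 ± 54.1 TPM (SD, n = 8 for each mean), so Cdh1 RNA does not tell the genotypes of the females apart. A total of 4 libraries stood apart. In the library labelled ΔEcad male 2, Xist stood at 6.41 TPM while no other male exceeded 0.2 TPM, and Y-linked genes (4 summed) had 0 counts where the other males had 1459 to 8800. ΔEcad female 1 had 92 Y-linked counts against at most 4 in the other females. ΔEcad male 7 had a melanocytic marker score (mean log2 CPM of 9 genes, where CPM is the count scaled to library size) of 0.43, against 7.28 to 11.41 in the other tumours, and its melanocytic markers summed to 31.9 TPM where every other tumour had at least 5891 TPM. ΔEcad female 3 had an endothelial score of -3.05 and a macrophage score of -3.19, against lowest values of 2.81 and 2.56 elsewhere. Keratinocyte markers, with summed levels from 5.75 to 56197.9 TPM, were low in 14 tumours and high in 18, and the low tumours comprised 1 Ecad male, 6 Ecad females, 4 ΔEcad males and 3 ΔEcad females.

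All 10 members were detected in every tumour, and their levels fell into an upper and a lower tier. Mcl1, Bcl2l1, Bak1, Bax and Bad formed the upper tier and Bbc3, Bmf, Bcl2l11, Bcl2 and Pmaip1 the lower one, in order of their mean TPM over 32 tumours. Bad exceeded Bbc3, its neighbour across the tiers, in 32 of 32 tumours, and Bax exceeded Bad in 32 of 32. Elsewhere within the tiers the order was loose. Mcl1 exceeded Bcl2l1 in 26 tumours, Bcl2l1 exceeded Bak1 in 23, and Bak1 exceeded Bax in 15. Bbc3 exceeded Bmf in 22 tumours, Bmf exceeded Bcl2l11 in 21, Bcl2l11 exceeded Bcl2 in 21, and Bcl2 exceeded Pmaip1 in 22. These 7 pairs of neighbours changed places between tumours, unlike Bax with Bad and Bad with Bbc3. Every member passed the filter on low counts.

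**Figure D1:**
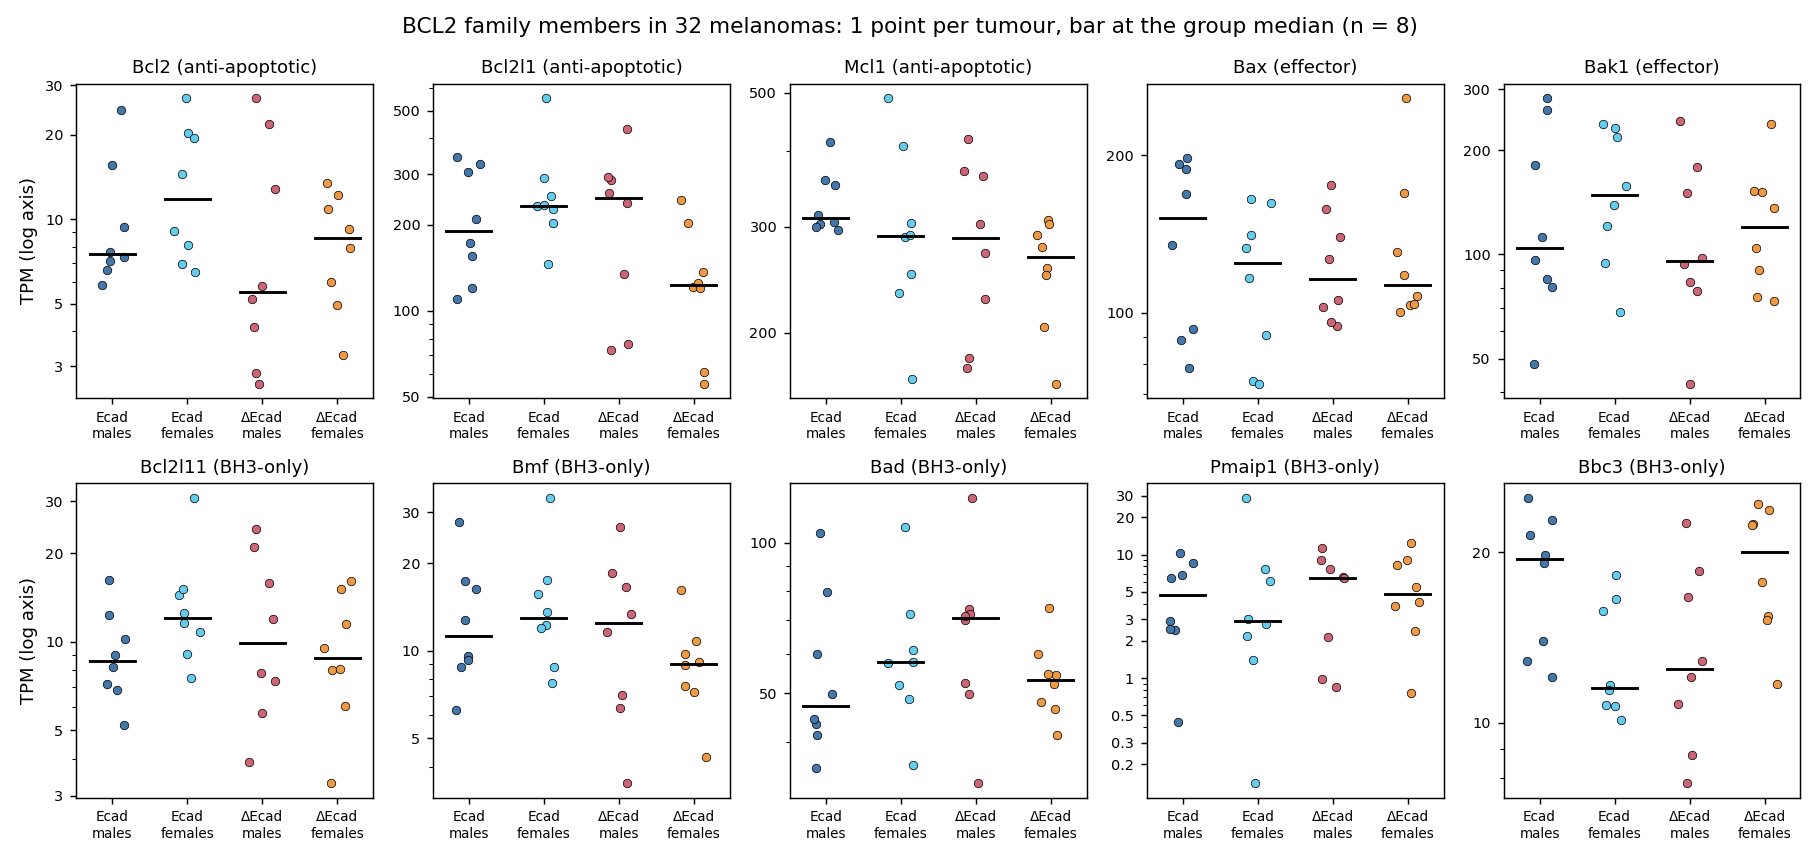
Level of each BCL2 family member in every tumour. Each panel plots TPM on a log axis (axes differ between panels), with 1 point per tumour, a bar at the group median and n = 8 per group; the groups overlap in every panel, Mcl1 spans the narrowest range by ratio (164.4 to 490.5 TPM) and Pmaip1 the widest (0.14 to 28.9 TPM).

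Among the anti-apoptotic members, Mcl1 was the most abundant and Bcl2 the least. Mcl1 (ENSMUSG00000038612, chromosome 3, 95658788 to 95663176, plus strand, GRCm38), whose protein is short-lived and buffers BIM and NOXA, had a lowest, median and highest level of 296.0, 309.5 and 415.0 TPM in Ecad males. Ecad females ranged from 167.6 to 490.5 TPM around a median of 289.6 TPM. In ΔEcad tumours the 3 values were 174.3, 286.8 and 419.6 TPM in males and 164.4, 266.6 and 307.5 TPM in females. Ecad males were the tightest group for Mcl1, with a mean of 330.3 ± 41.7 TPM (SD, n = 8), and the 4 groups overlapped.

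Bcl2l1 (ENSMUSG00000007659, chromosome 2, 152780668 to 152831728, minus strand), which encodes BCL-XL, ranged more widely. Its lowest, median and highest levels were 110.3, 190.2 and 344.8 TPM in Ecad males, 145.7, 233.2 and 554.2 TPM among Ecad females, 72.9, 247.4 and 430.8 TPM in ΔEcad males and 55.6, 123.1 and 244.4 TPM in ΔEcad females. ΔEcad females were low, with 7 of 8 below the median of the Ecad females, although the ranges overlapped. The highest value was Ecad female 3, the lowest ΔEcad female 3, and the lowest values among ΔEcad males were those of ΔEcad male 7 and the library labelled ΔEcad male 2, at 72.9 and 76.5 TPM. Bcl2l1 exceeded Mcl1 in 6 tumours, of which 1 was an Ecad male, 2 were Ecad females and 3 were ΔEcad males.

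Bcl2 (ENSMUSG00000057329, chromosome 1, 106538178 to 106714274, minus strand), the founding member of the family, was present at 2.6 to 27.1 TPM. It overlaps Mir3473f and Gm37053 on its own strand and D630008O14Rik on the other, so its counts are uncertain to the extent that reads of these genes were added to it. The lowest, median and highest levels were 5.82, 7.51 and 24.4 TPM in Ecad males, 6.48, 11.8 and 27.1 TPM among Ecad females, 2.6, 5.5 and 27.0 TPM in ΔEcad males, and 3.3, 8.56 and 13.5 TPM in ΔEcad females. ΔEcad males held both the lowest value, that of the library labelled ΔEcad male 2, and nearly the highest. Bcl2 made up 0.353% to 5.27% of the summed TPM of the 3 anti-apoptotic members.

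The effector genes were expressed at similar levels. Bax (ENSMUSG00000003873, chromosome 7, 45461697 to 45466898, minus strand), which moves to mitochondria on activation and overlaps Gm45808 on its own strand, averaged 142.7 ± 50.3 TPM in Ecad males, 119.4 ± 36.9 TPM among Ecad females, 124.8 ± 30.4 TPM in ΔEcad males and 136.3 ± 53.7 TPM in ΔEcad females (SD, 8 tumours each). Bak1 (ENSMUSG00000057789, chromosome 17, 27019810 to 27029009, minus strand), which resides in the outer mitochondrial membrane and overlaps Ggnbp1 on the opposite strand, was at 143.3 ± 88.1, 158.5 ± 64.6, 120.8 ± 65.1 and 127.7 ± 54.8 TPM in the same order. Differences between the group means of both genes were smaller than the SD of the groups. Single tumours reached 256.95 TPM for Bax (ΔEcad female 5) and 283.1 TPM for Bak1 (Ecad male 8).

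Of the BH3-only members, Bad (ENSMUSG00000024959, chromosome 19, 6941861 to 6951899, plus strand), which overlaps Gpr137 on the opposite strand, was the most abundant and supplied 34.3% to 80.1% of the summed BH3-only TPM. Its lowest, median and highest levels were 35.4, 47.0 and 104.6 TPM in Ecad males, 36.0, 57.6 and 107.3 TPM among Ecad females, 32.98, 70.6 and 123.0 TPM in ΔEcad males and 41.3, 53.2 and 73.9 TPM in ΔEcad females. Among males, 7 of 8 ΔEcad tumours lay above the Ecad median, and the highest was the library labelled ΔEcad male 2.

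Both anoikis triggers were low. Bcl2l11 (ENSMUSG00000027381, chromosome 2, 128126038 to 128162547, plus strand) had lowest, median and highest levels of 5.21, 8.62 and 16.2 TPM in Ecad males, 7.51, 12.04 and 30.9 TPM among Ecad females, 3.89, 9.88 and 24.2 TPM in ΔEcad males and 3.3, 8.82 and 16.1 TPM in ΔEcad females. Bmf (ENSMUSG00000040093, chromosome 2, 118528757 to 118549687, minus strand) had 6.25, 11.2 and 27.7 TPM, 7.75, 12.97 and 33.6 TPM, 3.5, 12.5 and 26.7 TPM, and 4.33, 9.02 and 16.2 TPM in the same order of groups. For Bmf, 7 of 8 ΔEcad females lay below the Ecad female median, and for Bcl2l11 6 of 8, with overlap in both cases.

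The p53-responsive members differed in spread. Bbc3 (ENSMUSG00000002083, chromosome 7, 16308393 to 16318205, plus strand) was among the steadiest, with lowest, median and highest levels of 12.02, 19.5 and 24.9 TPM in Ecad males, 10.1, 11.5 and 18.2 TPM among Ecad females, 7.81, 12.4 and 22.5 TPM in ΔEcad males and 11.7, 20.015 and 24.3 TPM in ΔEcad females. All 8 ΔEcad females exceeded the Ecad female median, whereas 7 of 8 ΔEcad males lay below the Ecad male median, and the ranges overlapped in both sexes. Pmaip1 (ENSMUSG00000024521), in contrast, varied from 0.14 TPM in Ecad female 8, which rested on 5 counts, to 28.9 TPM in Ecad female 2, which rested on 595. Its median was 4.66 TPM among Ecad males, 2.88 TPM among Ecad females, 6.5 TPM among ΔEcad males and 4.79 TPM among ΔEcad females. With a coefficient of variation of 94.7% over 32 tumours, against 26.1% for Mcl1, Pmaip1 was the most variable member, and its lowest counts limit precision in single tumours.

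In females, no member was called different between ΔEcad and Ecad tumours, where a call is a Benjamini-Hochberg adjusted p under 0.05 in the edgeR quasi-likelihood test together with an absolute log2 fold change over 1. Over all 17717 genes tested, 1.20% were called, and 0 of 10 members lies near that background. The largest difference was that of Bcl2l1, with a log2 fold change of -1.08 (SE 0.43, 95% interval -1.96 to -0.19, edgeR p 0.0185, adjusted p 0.193). Bcl2 followed at -0.85 (SE 0.43, p 0.0542, edgeR adjusted p 0.339), which missed an unadjusted p of 0.05. Bmf was at -0.80 (SE 0.35, p 0.0313, edgeR adjusted p 0.254), Bcl2l11 at -0.68 (SE 0.31, p 0.0342, edgeR adjusted p 0.265) and Bbc3, in the other direction, at 0.46 (SE 0.22, p 0.0497, edgeR adjusted p 0.325). Bcl2l1, Bmf, Bcl2l11 and Bbc3 thus made 4 of 10 with an unadjusted p under 0.05, as had 15.3% of all genes. In the lower direction this was 3 members against 4.13% of all genes, and in the higher direction 1 member against 11.2%. DESeq2 and limma called no member either.

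Of the 10 members, 8 had a negative and 2 a positive fold change in females, with a median of -0.28 against -0.02 over all genes, and with the other scalings tried 7 or 8 were negative. All 3 anti-apoptotic members were on the negative side. For Mcl1 the log2 fold change was -0.28 (95% interval -0.78 to 0.21), for Bak1 -0.28 (-1.07 to 0.50), for Bax 0.19 (-0.45 to 0.82), for Bad -0.21 (-0.85 to 0.42) and for Pmaip1 -0.13 (-1.45 to 1.19). These intervals leave room for changes of either sign. Marker genes of other cells differed in the same comparison, none of them called. At an unadjusted p under 0.05, 12 of 13 keratinocyte, 6 of 6 adipocyte and 3 of 7 fibroblast markers were higher in ΔEcad females. So were 2 of 6 skeletal muscle, 2 of 6 Schwann cell and 1 of 7 endothelial markers. At the same threshold, 3 of 5 B and plasma cell markers and 1 of 9 melanocytic markers, Mitf, were lower. All 9 melanocytic markers had negative fold changes, with a median log2 fold change of -0.84. The median summed keratinocyte level was 12.4 TPM (5.75 to 2487.2) in Ecad and 8291.8 TPM (9.68 to 56197.9) in ΔEcad females, no keratinocyte marker being at 0 counts throughout a group. With the keratinocyte and melanocytic scores in the model, Bcl2l1 was at -1.02 and Bcl2l11 at -0.67, while Bmf was at -0.35 (edgeR p 0.379) and Bcl2 at -0.50 (edgeR p 0.27).

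Single tumours carried much of these differences. Without Ecad female 3, the fold change of Bcl2l1 was -0.75 (edgeR p 0.084) and that of Bcl2l11 was -0.31 (edgeR p 0.263). Without Ecad female 6, that of Bmf was -0.44 (edgeR p 0.19). With each of 32 tumours left out in turn, an unadjusted edgeR p under 0.05 held in 31 fits for Bcl2l1, 29 for Bmf and 27 for Bcl2l11. For Bbc3 it held in only 7 of 32, with fold changes from 0.36 to 0.55. Without the 4 libraries that stood apart, Bcl2l1 was at -0.91, Bmf at -0.90, Bcl2l11 at -0.78 and Bbc3 at 0.57, all with an edgeR adjusted p of at least 0.220.

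In males, edgeR called no gene between ΔEcad and Ecad tumours (0% of 17717) and limma none, while DESeq2 called 21, with no member among them. No member had an unadjusted p under 0.05 in any of these tools, against 10.2% of all genes in edgeR (7.19% higher and 3.05% lower). The member nearest to the threshold was Bad, at 0.62 (SE 0.31, 95% interval -0.02 to 1.26, p 0.0575, edgeR adjusted p 0.497), followed by Bcl2l11 at 0.52 (SE 0.31, p 0.103, edgeR adjusted p 0.551). The value for Bad was 0.40 (edgeR p 0.199, adjusted p 0.751) without the library labelled ΔEcad male 2, where the mean of the other ΔEcad males was 60.3 TPM, and 0.44 (edgeR p 0.188, adjusted p 0.710) without the 4 libraries that stood apart. With each of 32 tumours left out in turn, the value for Bad ranged from 0.40 to 0.80, with an unadjusted edgeR p under 0.05 in 6 fits. Bcl2l1 was at 0.36 (-0.52 to 1.23), Bcl2 at 0.10 (-0.76 to 0.96), Mcl1 at 0.07 (-0.42 to 0.57) and Bbc3 at -0.20 (-0.66 to 0.25). Positive values in 9 of 10 members cannot be read as a direction, because the median of all genes was 0.11 in this comparison and with scaling by library size alone, which put that median at -0.08, only 4 members were positive. The intervals of Mcl1, Bbc3, Bcl2, Bax, Bak1 and Bmf lie within 1 log2 unit of 0, and those of Bcl2l1, Bcl2l11 and Bad reach beyond it. The interval of Pmaip1 (-1.06 to 1.58) does not limit it to a small change. All 13 keratinocyte markers had negative fold changes in this comparison, none with an unadjusted p under 0.05.

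**Figure D2:**
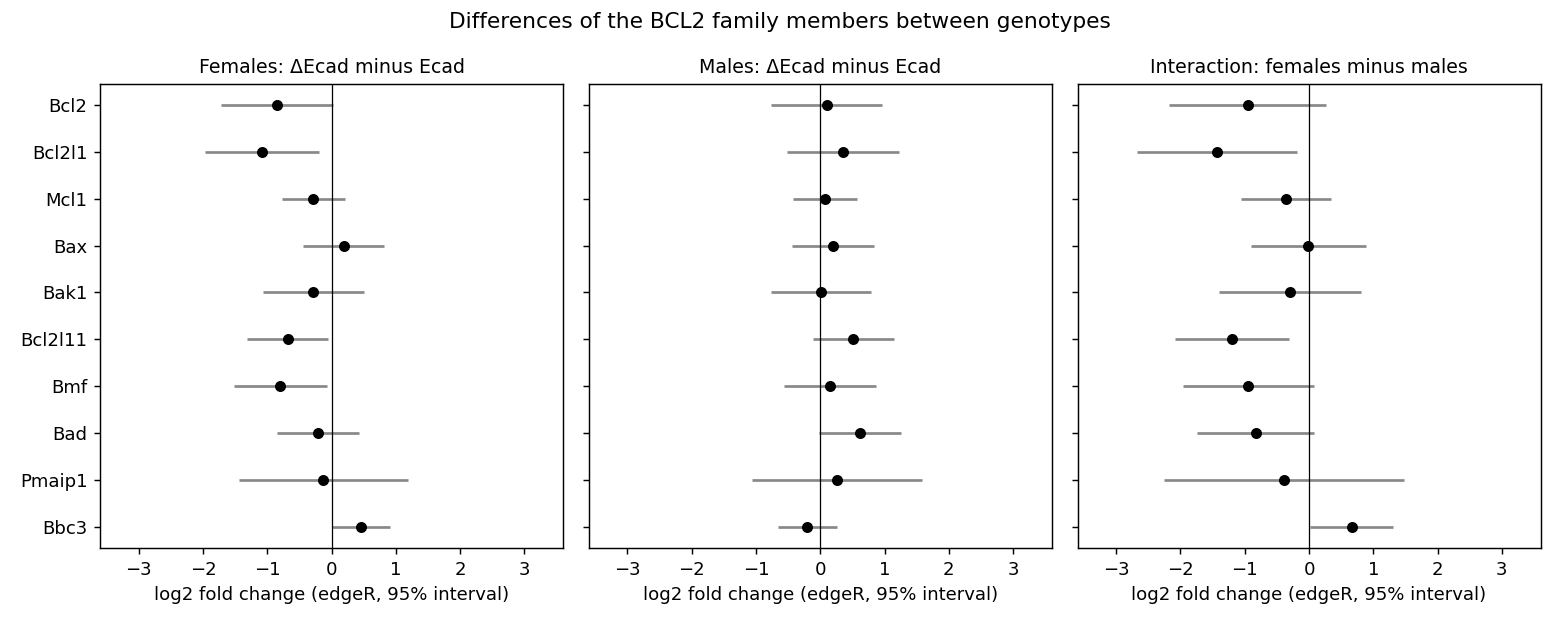
Log2 fold change of each member between genotypes. Points are edgeR estimates from 1 model of 32 tumours and lines their 95% intervals, for ΔEcad minus Ecad in females (left), in males (middle), and for the female minus the male difference (right); intervals of Bcl2l1, Bcl2l11, Bmf and Bbc3 exclude 0 in females and those of Bcl2l1, Bcl2l11 and Bbc3 in the interaction, but no member passed the adjustment over 17717 genes.

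Whether the genotype difference depended on sex was tested as an interaction. No gene was called by edgeR (0%), DESeq2 called 1225, and no member passed the adjustment in either. The 0% belongs to TMM scaling. With the other scalings of counts, edgeR called 201 to 506 genes, and again no member. Bcl2l11, which leaned down in females and up in males, had the smallest p of the members, with an interaction of -1.20 (SE 0.44, 95% interval -2.09 to -0.31, p 0.00974, edgeR adjusted p 0.130). Bcl2l1 was at -1.43 (SE 0.61, p 0.0251, edgeR adjusted p 0.203) and Bbc3 at 0.66 (SE 0.32, p 0.0452, edgeR adjusted p 0.270). An unadjusted p under 0.05 was thus seen for 3 of 10 members, against 17.7% of all genes, with 2 members against 6.94% on the negative and 1 against 10.7% on the positive side. The sign was negative for 9 members, with a median of -0.61 against -0.16 over all genes, and for 6 to 8 members under the other scalings. Without Ecad female 3, which held the highest Bcl2l11 and Bcl2l1 levels of the series, the interaction was -0.82 (edgeR p 0.035) for Bcl2l11 and -1.11 (edgeR p 0.068) for Bcl2l1.

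Sex was compared within each genotype. Among Ecad tumours, 9 genes (0.0508%) were called and no member, and Bcl2l11 alone of the members had an unadjusted p under 0.05 (16.0% of all genes, 5.71% higher and 10.3% lower in females), with a log2 fold change of 0.71 (SE 0.31, p 0.0272, edgeR adjusted p 0.242) and 0.34 (edgeR p 0.218) without Ecad female 3. Bbc3 lay below the Ecad male median in 8 of 8 Ecad females, at -0.34 (SE 0.22, edgeR adjusted p 0.466). In the same comparison 12 of 13 keratinocyte markers were lower in Ecad females at an unadjusted p under 0.05. Among ΔEcad tumours, 7 genes (0.0395%) were called and again no member. Bcl2l1 was at -1.05 (SE 0.43, p 0.0217, edgeR adjusted p 0.529) and Bad at -0.69 (SE 0.31, p 0.0357, edgeR adjusted p 0.554) in females relative to males, which makes 2 of 10 members with an unadjusted p under 0.05 against 8.81% of all genes (5.49% lower, the direction of both, and 3.32% higher). All 8 ΔEcad females lay below the ΔEcad male median of Bcl2l1, although the ranges overlapped. Without the library labelled ΔEcad male 2, whose Bad level was the highest of the series, the value for Bad was -0.48 (edgeR p 0.133). The 4 comparisons share groups, so the low ΔEcad female values of Bcl2l1 enter 3 of these results.

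The RNA of the anti-apoptotic members outweighed that of the BH3-only members in every tumour. The summed TPM of Bcl2, Bcl2l1 and Mcl1 averaged 558.7 ± 121.7 among Ecad males, 585.2 ± 186.9 among Ecad females, 522.7 ± 172.4 among ΔEcad males and 398.3 ± 104.5 among ΔEcad females (SD, 8 tumours each). That of the 5 BH3-only members was 103.6 ± 19.2, 110.3 ± 20.04, 112.6 ± 28.9 and 97.7 ± 12.9 TPM in the same order. The log2 of the ratio of both sums, given as a description without a test, averaged 2.42 ± 0.42 for Ecad males, 2.37 ± 0.57 for Ecad females, 2.18 ± 0.81 for ΔEcad males and 1.99 ± 0.44 for ΔEcad females. Group means differed by less than 1 SD of the Ecad and ΔEcad groups in males and females alike.

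The ratio varied from 1.603 to 10.6 between tumours, and Mcl1 (36.0% to 79.4% of the anti-apoptotic sum) and Bcl2l1 (19.6% to 62.6%) supplied nearly all of the numerator. The highest log2 ratio, 3.41, belonged to Ecad female 3. The lowest were 0.68 in the library labelled ΔEcad male 2, 1.11 in ΔEcad female 3 and 1.19 in ΔEcad male 7, which are 3 of the 4 libraries that stood apart. Without those 4, the mean log2 ratio was 2.59 in ΔEcad males, above that of the Ecad males, and 2.11 in ΔEcad females. Averaging the log2 levels of the members, so that abundant members do not dominate, gave 2.70, 2.88, 2.48 and 2.27 for Ecad males, Ecad females, ΔEcad males and ΔEcad females. Without Mcl1 and Bad the means were 2.22 ± 0.85, 2.47 ± 0.48, 2.29 ± 1.36 and 1.59 ± 0.90 (SD, 8 tumours each). The gap between the females was then larger than the SD of the Ecad females and smaller than that of the ΔEcad females, and ΔEcad females were the lowest group under each of these ways to form the ratio.

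**Figure D3:**
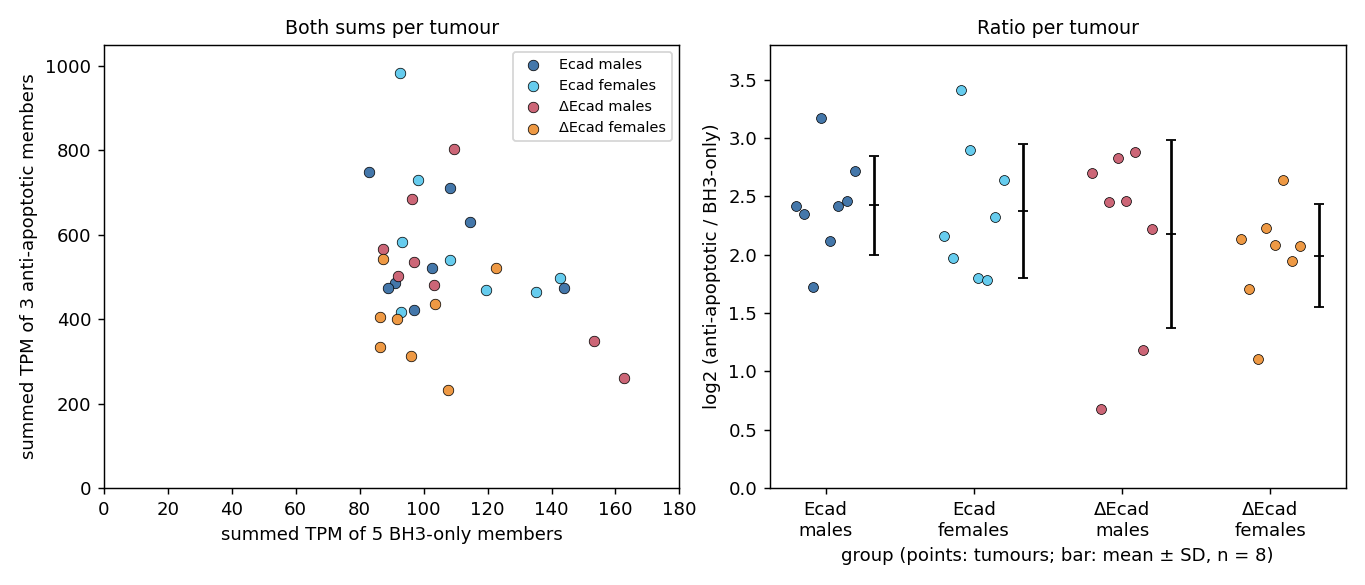
Anti-apoptotic beside BH3-only RNA in each tumour. The left panel plots the summed TPM of the 3 anti-apoptotic against that of the 5 BH3-only members with 1 point per tumour, and the right panel the log2 of their ratio with the mean and SD of each group (n = 8); every tumour lies above a log2 ratio of 0, and the values range from 0.68 to 3.41.

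How members varied together was examined over the 32 tumours after removing group means, in 45 pairs chosen for testing after the data were seen. Of these, 4 pairs passed a Benjamini-Hochberg adjusted permutation p of 0.05 by both Pearson's r and Spearman's rho. Bad rose and fell with Bax (r = 0.69, permutation p 4e-05, adjusted p 0.0018; rho = 0.66, permutation p 0.00014, adjusted p 0.0063) and with Bak1 (r = 0.64, permutation p 0.00071, adjusted p 0.012; rho = 0.67, permutation p 0.00036, adjusted p 0.0081). Mcl1 went with Bcl2l1 (r = 0.59, permutation p 0.0008, adjusted p 0.012; rho = 0.59, permutation p 0.00088, adjusted p 0.0132), and Bcl2l11 with Bcl2 (r = 0.57, permutation p 0.00244, adjusted p 0.0274; rho = 0.59, permutation p 0.00252, adjusted p 0.0227). Each of the 4 relations had the same sign in 4 of 4 groups. After the 2 tumours with the most distant levels of the second-named gene were left out, r was 0.65 for Bad with Bax, 0.58 for Bad with Bak1, 0.49 for Mcl1 with Bcl2l1 and 0.62 for Bcl2l11 with Bcl2.

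The reverse relation was seen for Bak1 and Bbc3 (r = -0.44, permutation p 0.00624, adjusted p 0.0562; rho = -0.51, permutation p 0.00158, adjusted p 0.0178), which passed by rank only. The members that rose together were thus a pair of effectors with Bad, a pair of inhibitors, and the inhibitor Bcl2 with the trigger Bcl2l11, rather than all members of a role. Bax and Bak1 themselves had r = 0.26 (permutation p 0.163, adjusted p 0.367; rho = 0.27, permutation p 0.141, adjusted p 0.351).

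**Figure D4:**
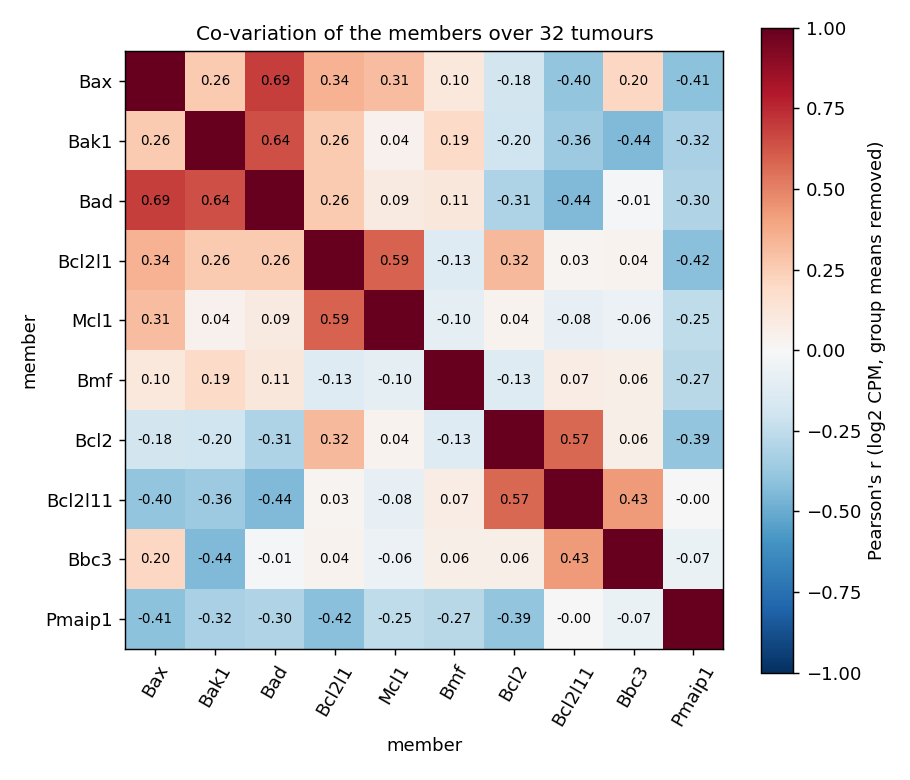
Pearson's r between members over 32 tumours. Each cell gives r of log2 CPM after removing the mean of each group, from -1 (blue) to 1 (red); Bad with Bax (0.69) and Bad with Bak1 (0.64) are the highest, and Bbc3 with Bak1 (-0.44) is among the lowest.

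A slope of expression on transcript length within each tumour moved with some of the 10 members, each of which was tested against it. The slope regresses the log2 CPM of a tumour, relative to the mean of all tumours, on the log2 of relative transcript length taken from the ratio of counts to TPM, and it was computed after the data were seen. Bax, a short gene at the 16.3rd percentile of length among 17687 genes, was negatively related to it (r = -0.58, permutation p 0.0014, adjusted p 0.014; rho = -0.55, permutation p 0.00243, adjusted p 0.0243), and r was -0.49 without the 2 farthest tumours. Bcl2l11, at the 87.1st percentile, was positively related (r = 0.50, permutation p 0.0078, adjusted p 0.038; rho = 0.53, permutation p 0.00513, adjusted p 0.0256), and r was 0.40 without those. Bad, at the 23.4th percentile, passed by r and not by rank (r = -0.49, permutation p 0.0114, adjusted p 0.038; rho = -0.34, permutation p 0.0769, adjusted p 0.182), and r was -0.45 without the same 2 tumours. With the slope removed, r was 0.57 for Bad with Bax, 0.82 for Bad with Bak1, 0.59 for Mcl1 with Bcl2l1 and 0.45 for Bcl2l11 with Bcl2.

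Upstream sequences are shown for the genes of the pairs Bcl2l11 with Bcl2 and Mcl1 with Bcl2l1, which varied together. Each is the 250 bases before the RefSeq transcription start (GRCm38.p6) nearest the annotated 5′ end of the gene. Bcl2l1 and Bcl2l11 have further starts, whose windows are not printed. The windows of Bad, Bax and Bak1, the genes of the pairs with the highest r, are not printed either. The windows shown run 5′ to 3′ on the strand of the gene. Capitals mark each GC box, the letters GGGCGG on either strand, which is the binding motif of SP1.
Bcl2 (chromosome 1, 106714291 to 106714540, minus strand): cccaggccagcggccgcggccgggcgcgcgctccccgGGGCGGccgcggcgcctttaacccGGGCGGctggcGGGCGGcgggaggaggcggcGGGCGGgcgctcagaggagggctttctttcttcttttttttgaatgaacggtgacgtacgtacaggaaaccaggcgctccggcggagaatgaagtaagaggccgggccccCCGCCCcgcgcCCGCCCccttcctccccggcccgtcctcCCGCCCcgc
Bcl2l11 (chromosome 2, 128125788 to 128126037, plus strand): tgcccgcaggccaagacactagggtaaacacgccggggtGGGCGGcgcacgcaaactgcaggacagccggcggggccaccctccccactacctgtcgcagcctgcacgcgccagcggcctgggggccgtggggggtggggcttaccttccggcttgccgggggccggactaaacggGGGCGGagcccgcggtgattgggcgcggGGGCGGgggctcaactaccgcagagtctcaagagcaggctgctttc
Mcl1 (chromosome 3, 95658471 to 95658720, plus strand): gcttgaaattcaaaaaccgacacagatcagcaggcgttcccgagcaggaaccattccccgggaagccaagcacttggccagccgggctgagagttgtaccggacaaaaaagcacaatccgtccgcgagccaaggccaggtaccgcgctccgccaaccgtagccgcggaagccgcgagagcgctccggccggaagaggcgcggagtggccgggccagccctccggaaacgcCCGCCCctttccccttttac
Bcl2l1 (chromosome 2, 152831729 to 152831978, minus strand): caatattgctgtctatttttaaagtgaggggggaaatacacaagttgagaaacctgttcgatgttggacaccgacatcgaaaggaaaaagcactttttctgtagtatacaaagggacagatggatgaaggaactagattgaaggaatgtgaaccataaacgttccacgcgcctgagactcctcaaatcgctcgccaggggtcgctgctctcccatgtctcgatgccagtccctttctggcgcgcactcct

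The Bcl2 window held 7 GC boxes and that of Bcl2l11 held 3, while the Mcl1 window held 1 and the Bcl2l1 window none. Over all 32536 windows of the same length, 32.97% held at least 1. The windows of Bcl2, Bcl2l11, Mcl1 and Bcl2l1 held 36, 24, 26 and 12 CG dinucleotides, against a median of 6. CACGTG, the E-box bound by MITF and other factors, was in none of these 4 and in 6.04% of all windows. TATAAA was in none of these 4 and in 12.3% of all. Of the windows of Bad, Bax and Bak1, which are not printed, that of Bax held CACGTG and the others did not. CCAAT, searched on both strands, was in the Bcl2l11 window and in 33.8% of all. These are matches of letters, and no binding was measured.

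Relations of the members to markers of cell types were tested for 6 marker scores with group means removed, which makes 60 relations. The relation that passed the adjustment by both measures was that of Pmaip1 with the fibroblast score, the mean log2 CPM of 7 genes of collagens and the stroma (r = 0.60, permutation p 0.00043, adjusted p 0.0258; rho = 0.61, permutation p 0.00047, adjusted p 0.0141). It had the same sign in 4 of 4 groups, and r was 0.56 without Ecad female 8 and ΔEcad male 7, the 2 tumours with the most extreme scores. Bcl2 was related to the same score in the other direction (r = -0.56, permutation p 0.0022, adjusted p 0.0524; rho = -0.65, permutation p 0.00023, adjusted p 0.0138), again in 4 of 4 groups, and r was -0.52 without the same 2 tumours. By log2 CPM, tumours with a higher fibroblast score thus held more Pmaip1 and less Bcl2 RNA, and ΔEcad male 7 had the highest score, 10.2. On log2(TPM + 1), r of Bcl2 was -0.33 (permutation p 0.126, adjusted p 0.343) and rho was -0.40 (permutation p 0.0351, adjusted p 0.175). That r was -0.03 within ΔEcad males and -0.01 within ΔEcad females. For Pmaip1, r on this scale was 0.67 (permutation p 9e-05, adjusted p 0.0054). By log2 CPM without the 4 libraries that stood apart, Bcl2 had r = -0.59 with the fibroblast score (permutation p 0.0021, adjusted p 0.0192) and rho = -0.64 (permutation p 0.00061, adjusted p 0.0106). Among those 28 tumours 11 relations passed by r, and 5 of these were relations of Pmaip1. Its relation to the fibroblast score was then r = 0.60 (permutation p 0.00151, adjusted p 0.0192; rho = 0.63, permutation p 0.00089, adjusted p 0.0107). Those to the macrophage score (r = 0.64, permutation p 0.00093, adjusted p 0.0186; rho = 0.57, permutation p 0.00343, adjusted p 0.0294) and the T cell score (r = 0.62, permutation p 0.00081, adjusted p 0.0186; rho = 0.65, permutation p 0.00071, adjusted p 0.0106) were of similar size. The melanocytic score (r = -0.47, permutation p 0.00768, adjusted p 0.0419; rho = -0.44, permutation p 0.0229, adjusted p 0.0981) and the keratinocyte score, on which tumours fall into clusters, passed by r only in those 28 tumours.

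**Figure D5:**
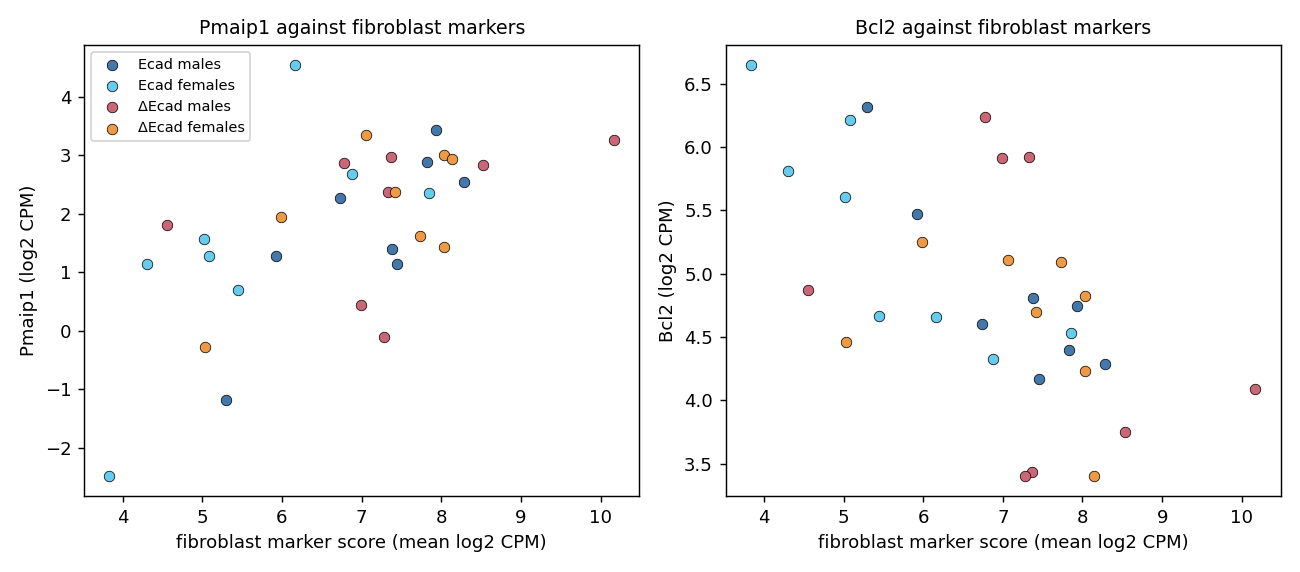
Pmaip1 and Bcl2 against the fibroblast marker score. Each point is a tumour, with the mean log2 CPM of 7 fibroblast markers on the x axis and the log2 CPM of Pmaip1 (left) or Bcl2 (right) on the y axis; with group means removed, r is 0.60 for Pmaip1 and -0.56 for Bcl2.

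By rank, 4 more relations passed and by r they did not. Melanocytic markers rose with Bcl2l1 (rho = 0.48, permutation p 0.00395, adjusted p 0.0453; r = 0.51, permutation p 0.00364, adjusted p 0.0524), with Bak1 (rho = 0.48, permutation p 0.00316, adjusted p 0.0453; r = 0.38, permutation p 0.0219, adjusted p 0.101) and with Bax (rho = 0.48, permutation p 0.00453, adjusted p 0.0453; r = 0.42, permutation p 0.0181, adjusted p 0.0985). Without ΔEcad male 7 and ΔEcad female 8, r was 0.38, 0.57 and 0.37 for these 3. Within Ecad females, r of Bcl2l1 was -0.02. On log2(TPM + 1), rho was 0.35 for Bcl2l1 (permutation p 0.0521, adjusted p 0.196) and 0.32 for Bax (permutation p 0.0576, adjusted p 0.196). For Bak1, rho on that scale was 0.49 (permutation p 0.00355, adjusted p 0.0426). Bbc3 fell with the proliferation score (rho = -0.53, permutation p 0.00334, adjusted p 0.0453; r = -0.52, permutation p 0.00468, adjusted p 0.0524), with r = -0.47 without the 2 farthest tumours. The relation of Bbc3 depended on the scale as well. On log2(TPM + 1), r was -0.19 (permutation p 0.314, adjusted p 0.523) and rho was -0.20 (permutation p 0.298, adjusted p 0.501). By log2 CPM without the 4 libraries that stood apart, r was -0.61 (permutation p 0.00242, adjusted p 0.0192) and rho was -0.66 (permutation p 0.00126, adjusted p 0.0126). Because the keratinocyte score splits the tumours into separate clusters, it was tested within each. None of 20 relations passed, the largest being that of Bak1 in the 18 keratinocyte-rich tumours (r = -0.68, permutation p 0.00656, adjusted p 0.131; rho = -0.49, permutation p 0.0543, adjusted p 0.362), where Bad was at r = -0.61 (permutation p 0.0146, adjusted p 0.146; rho = -0.55, permutation p 0.025, adjusted p 0.362). In the 14 keratinocyte-poor tumours the r of Bak1 was -0.01 (permutation p 0.983, adjusted p 0.983; rho = -0.15, permutation p 0.694, adjusted p 0.816).

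For each member, up to 3 genes with the most similar pattern were listed by Spearman's rho over 32 tumours with group means removed, among 17707 tested genes, as a description without a test. Bad was closest to Timm22, a mitochondrial import gene (0.92), Cops6 (0.90) and Mcrip1 (0.90). Bax was close to the ribosomal protein gene Rpl27 (0.86) and to Arl2 (0.85), and Bak1 to Ap2m1 and Pex19 (both 0.87) and Tax1bp3 (0.84). Bcl2 was closest to Arhgap20 (0.83), D330045A20Rik (0.82) and Slc15a4 (0.81), and Bcl2l11 to Specc1l (0.81), Frs2 (0.78) and Zbtb34 (0.77). Bcl2l1 was closest to Diras1 and Tmbim4 (both 0.81) and Ddrgk1 (0.80). Pmaip1 was closest to the immune receptor gene Il18rap (0.81), Flrt2 (0.81) and the interleukin receptor gene Il1r1 (0.80), and Bbc3 to Gm13717 (0.82), Derl3 (0.75) and Ormdl3 (0.73). The weakest matches were those of Mcl1, to the stress-response gene Ppp1r15a (0.69) and to Fabp7 (0.68), and of Bmf, to Adcy3 (0.67), Mrps18b (0.66) and Pter (0.65).

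Genes around the family were followed in 6 lists, and none of their genes was called in either genotype comparison. Over all 17717 genes, 11.2% were higher and 4.13% lower in ΔEcad females at an unadjusted p under 0.05, and 7.19% were higher and 3.05% lower in ΔEcad males, and with lists this short the counts that follow are a description beside these shares. Among other anti-apoptotic genes, 0 of 4 tested had an unadjusted p under 0.05 in either sex in edgeR, the tool used for these lists. Bcl2a1b, a homologue of blood cells, was at 1.34 (SE 0.87, edgeR adjusted p 0.519) in females and Bcl2l2, the gene of BCL-W, at -0.28 (SE 0.21, edgeR adjusted p 0.647) in males. The Bcl2a1 genes are near-identical copies between which reads may be split. Of 8 other effector or BH3-type genes, 2 were higher in ΔEcad females at an unadjusted p under 0.05 (11.2% of all genes), namely Bcl2l14 at 2.37 (SE 0.80, edgeR adjusted p 0.106), which stayed under 2.2 TPM in every tumour, and Bok, the third effector, at 1.37 (SE 0.55, edgeR adjusted p 0.187). In males none was, and Bnip3l, a mitophagy gene, was nearest at 0.46 (SE 0.29, edgeR adjusted p 0.570).

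Of 15 genes of the apoptosome, caspases and their inhibitors, 1 was lower in ΔEcad females and 1 higher in ΔEcad males at an unadjusted p under 0.05. These were the caspase inhibitor Xiap at -0.69 (SE 0.31, edgeR adjusted p 0.262) and Birc5, the gene of survivin, which is also a proliferation gene, at 1.17 (SE 0.56, edgeR adjusted p 0.484). Of 23 adhesion and survival signalling genes, 2 were higher and 2 lower in females and 2 higher in males at an unadjusted p under 0.05, which lies near the shares over all genes (11.2%, 4.13% and 7.19%). The integrin gene Itgb4 was at 2.89 in females (SE 0.86, edgeR adjusted p 0.0665), its level going from a median of 2.7 TPM in Ecad to 32.6 TPM in ΔEcad females, and Itgb3 was at 1.21 in males (SE 0.52, edgeR adjusted p 0.448) and at -1.30 in females (SE 0.52, edgeR adjusted p 0.193). Itgb4 is abundant in keratinocytes, whose markers differed in the same direction.

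Of 8 genes of p53 and its targets, 2 were higher in ΔEcad females (11.2% of all genes) and none in males (7.19%) at an unadjusted p under 0.05. Sesn2, a stress-response gene, was at 0.95 (SE 0.34, edgeR adjusted p 0.128), and Perp, which also counts among the keratinocyte markers, at 4.44 (SE 1.85, edgeR adjusted p 0.213). In males the nearest was the nuclease gene Aen at 0.54 (SE 0.28, edgeR adjusted p 0.500). Trp53 itself was at 0.28 (SE 0.31) in females and -0.22 (SE 0.31) in males, Cdkn1a at 0.16 (SE 0.35) and 0.21 (SE 0.35), and Mdm2 at -0.01 (SE 0.20) and 0.01 (SE 0.20), with edgeR adjusted p of at least 0.753 for each. Of 8 genes that the study used to score anoikis resistance, 2 were higher in ΔEcad females at an unadjusted p under 0.05, Atp10b at 2.80 (SE 1.05, edgeR adjusted p 0.156) and S100a7a at 1.98 (SE 0.96, edgeR adjusted p 0.314), and none in males, where Mtpn was at 1.10 (SE 0.65, edgeR adjusted p 0.549). Grpr, the receptor gene that the study follows, was in contrast called in females, where Ecad tumours averaged 0.07 ± 0.13 TPM and ΔEcad tumours 88.9 ± 99.1 TPM (SD, 8 tumours each, edgeR adjusted p 0.00034).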

How the data were processed

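Stranded paired-end libraries of polyadenylated RNA from 32 mouse melanomas were sequenced. The authors mapped the reads with STAR to GRCm38.p5 with the GENCODE M13 annotation (FastQC 0.11.5 and STAR appear in the submitters' processing notes) and deposited raw counts per gene and TPM. They describe batch correction where applicable, without saying whether these tumours were corrected, and the labels give no batch. Counts were whole numbers, and whether counting used the strand is not given in the sources used here. Of 50600 identifiers, 50376 received a symbol and GRCm38 coordinates from GENCODE M21, and promoter windows were taken from RefSeq (GRCm38.p6), with 9 of 10 members matched. Groups came from the labels.

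A single quasi-likelihood model of all 32 tumours (edgeR 4.0.16, robust estimation, TMM factors, genes kept by filterByExpr) gave two-sided tests, adjusted over 17717 genes. Comparisons were ΔEcad against Ecad in each sex, sex within each genotype, and the interaction. The SE came from the test statistic. Relations used log2 CPM (prior count 1) and 100000 permutations within groups, two-sided. The tools were checked on simulated data. Alternatives were DESeq2 1.42.0, limma 3.58.1, other scalings and filters, covariates, a replicate block, each tumour or 4 libraries left out, and other thresholds. R 4.3.3 and Python 3.11.15 were used.

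Named were the members, Cdh1, Grpr, Trp53, called list genes, for each list the gene with the smallest p in each genotype comparison, and the 3 genes most like each member, of which 2 are not reported here. Bok, Perp, S100a7a, Cdkn1a, Mdm2 and Mitf were named after their values were seen. The members, lists and tests were chosen with earlier results of these data known. Intervals cover the spread between tumours, and single low counts carry counting error besides.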

Additional observations from a re-analysis of the deposited data

Results flagged for a closer look

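Of 44 sets of 8 tumours examined (10 members and the log2 ratio of anti-apoptotic to BH3-only RNA, in 4 groups), 2 held a tumour far from the others by Dixon's test, and chance flags about 1 in 20 sets. Mcl1 in ΔEcad female 3 was low at 7.43 log2 CPM, against 8.16 to 8.65 in the other ΔEcad females (164.4 TPM against 204.0 to 307.5). Bcl2l11 in Ecad female 3 was high at 6.68 log2 CPM, against 4.25 to 5.31 in the other Ecad females (30.9 TPM against 7.51 to 15.1). Fold changes of Bcl2l11 without this tumour are given for the females, the Ecad sexes and the interaction. The relations of Bcl2l11 to Bcl2 and to the length slope are not given without it.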

How the results depend on the processing

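No member was called in any comparison under any of the alternatives, including each of 32 tumours left out, where the count was 0 throughout. The lowest adjusted p of a member was 0.0587 over all alternatives and 0.0812 over the tumours left out. With an unadjusted p under 0.05 and no fold threshold, the members passing were 4 in females, 1 between Ecad sexes, 2 between ΔEcad sexes and 3 in the interaction, and 0 in males. Of 2340 recomputed fold changes of single members, 125 changed sign, all but 4 from a value within 1 SE of 0. In these 4, limma on log2(TPM + 1) and log2(TPM + 0.1) put Bcl2 between ΔEcad sexes at 0.0594 and 0.102 (-0.43 in edgeR) and the interaction of Mcl1 at 0.0463 and 0.0467 (-0.36 in edgeR), and the cause was not tested. Replicate numbers did not pair the tumours: same-numbered tumours of different groups had correlations of -0.55 to 0.43 (median 0.04), and with the replicate block 0 members were called. Over all genes, calls in females numbered 213 in edgeR, 1281 in DESeq2, 1 in limma and 1 with the block. Relations to marker scores passing by r numbered 1, against 3 without removing group means, 11 without the 4 libraries that stood apart and 4 on log2(TPM + 1), and that of Pmaip1 with fibroblast markers passed in each. Formed in other ways or without 4 libraries, the mean log2 ratio of each group moved by less than 1 SD of that group, while the gap between the females without Mcl1 and Bad (2.47 and 1.59) exceeded the SD of the Ecad females (0.48). Tumour-to-tumour spread, with a common dispersion of 0.624, and single low counts of Pmaip1 limit precision.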

Other observations

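The genes most opposed to each member in pattern were listed after the values were seen, with group means removed over 32 tumours. Bad ran against Mycbp2, a very large ubiquitin ligase gene (Spearman's rho -0.92), Bax against the polarity gene Pard3 (-0.86), Bak1 against Paxbp1 (-0.85) and Bcl2l1 against the imprinting regulator gene Zfp57 (-0.82). Pmaip1 ran most strongly against Ddrgk1 (-0.72), which was also among the genes most like Bcl2l1. These are descriptions of 32 tumours that share library preparation, and they carry no test.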
